A study of Rattus norvegicus with 15 samples.

Results

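The 37 genes described here encode the chaperones of the cytosol and of the mitochondrial matrix together with their cochaperones: the small heat shock proteins, the HSP70 and HSP110 proteins, HSP40 and BAG partners, HSP90 and its cochaperones, the 8 subunits of the chaperonin TRiC and a pair of heat shock factors. They were chosen by symbol, through the transcript accession of each array probe. Of the 37, 35 had a probe by accession (48 probes), and all 35 passed the filter on dim probes, out of 19803 genes tested on the arrays. Hspa1b and Dnajb1 were not analysed here. The probes used for the 35 genes were well above background on each of the 15 arrays.

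The cells were primary hepatocytes of male Wister rats (the labels' spelling of Wistar), bought frozen. They were cultured for 24 h and then exposed for 24 h to the solvent DMSO or to 30 µM of 1 of 4 compounds: naphthalene, 1-Naphthol, 1,5-Naphthalenediol or 2,7-Naphthalenediol. Naphthalene is a bicyclic aromatic hydrocarbon without a hydroxyl group, 1-Naphthol carries a single one, and the diols carry a pair each at the positions given in their names. Each of the 5 groups had 3 arrays, stated to come from independent experiments, and the study set the structural analogs side by side for read-across of liver toxicity. No genotype, allele or further agent is named. In such bulk samples, fewer cells of a type and less RNA per cell cannot be told apart.

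Chaperones bind unfolded or newly made proteins and help them reach or regain their native fold. HSP70 works with HSP40 partners, which deliver substrates and stimulate its ATPase, and with nucleotide exchange factors such as the HSP110 and BAG proteins; HSP90 takes over signalling proteins late in folding; small heat shock proteins hold unfolded proteins without using ATP; HSPD1 and HSPE1 form the folding chamber of mitochondria, and TRiC the one of the cytosol. Many of these genes are transcribed in response to protein damage through heat shock factor 1, which binds arrays of the unit GAA in alternating orientation, called heat shock elements.

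Because these genes are known for that element, the promoters of 4 members that carried the results are shown first: Hspb1 and Hsph1, which rose with 1,5-Naphthalenediol, Hspe1, which rose too, and Hspa8, which fell. The sequences are the 250 bases before the transcription start from RefSeq (build GRCr8), 5′ to 3′ on the gene's strand, with each match to GAANNTTC or TTCNNGAA (a heat shock element of 2 units; each pattern reads the same on both strands) in capitals. The Hspb1 window lies on the minus strand at chr12:26432302-26432551, Hsph1 on the plus strand at chr12:10427118-10427367, Hspe1 on the plus strand at chr9:64084077-64084326 and Hspa8 on the plus strand at chr8:50080264-50080513.
Hspb1: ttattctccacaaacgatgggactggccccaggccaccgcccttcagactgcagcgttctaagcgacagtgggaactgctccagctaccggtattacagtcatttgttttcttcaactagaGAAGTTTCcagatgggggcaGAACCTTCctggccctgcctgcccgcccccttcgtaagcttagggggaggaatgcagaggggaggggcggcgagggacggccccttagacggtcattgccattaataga
Hsph1: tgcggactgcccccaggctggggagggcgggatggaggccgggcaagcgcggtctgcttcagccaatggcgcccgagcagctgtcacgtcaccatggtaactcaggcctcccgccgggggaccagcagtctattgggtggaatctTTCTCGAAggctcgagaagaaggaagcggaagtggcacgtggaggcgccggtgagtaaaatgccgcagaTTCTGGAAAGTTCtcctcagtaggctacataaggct
Hspe1: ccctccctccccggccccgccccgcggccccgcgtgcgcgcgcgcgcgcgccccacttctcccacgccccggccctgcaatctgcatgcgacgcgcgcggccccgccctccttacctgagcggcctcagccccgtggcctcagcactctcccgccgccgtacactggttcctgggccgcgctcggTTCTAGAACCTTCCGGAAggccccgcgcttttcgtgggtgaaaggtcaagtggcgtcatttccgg
Hspa8: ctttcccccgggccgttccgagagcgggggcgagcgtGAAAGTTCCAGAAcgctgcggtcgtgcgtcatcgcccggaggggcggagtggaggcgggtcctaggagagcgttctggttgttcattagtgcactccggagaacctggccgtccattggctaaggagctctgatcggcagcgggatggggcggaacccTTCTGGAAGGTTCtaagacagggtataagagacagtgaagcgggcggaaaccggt

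The Hspb1 promoter held a pair of separate elements of 2 units, GAAGTTTC from position -129 to -122 and GAACCTTC from -109 to -102, counted from the start site. Hsph1 held TTCTGGAAAGTTC from -36 to -24, Hspe1 the run of 4 units TTCTAGAACCTTCCGGAA from -65 to -48, and Hspa8 a pair of elements of 3 units, GAAAGTTCCAGAA and TTCTGGAAGGTTC. Hspd1 and Hspe1 are neighbours read in opposite directions, and their windows held the same element, written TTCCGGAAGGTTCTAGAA on the Hspd1 strand. Promoters were matched for 31 of the 37 members, over the window from 250 bases before to 50 after the start. An element of 3 units (GAANNTTC followed by NNGAA), on either strand, was in 7 of the 31 (22.6%): Cct4, Chordc1, Dnaja1, Hspa8, Hspd1, Hspe1 and Hsph1. It was in 0.736% of all 27457 rat promoters of that length. The element of 2 units, which lies within each longer one, was in 19 of the 31 (61.3%) and in 15.4% of all. For comparison, TGACNNNGC, the core of the antioxidant response element, was in 5 of the 31 (16.1%) against 12.2% of all, and GCGTG, the core bound by the aryl hydrocarbon receptor, in 18 of the 31 (58.1%) against 31.1%, both searched on both strands. A match is a description of the letters, not of binding.

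Values below are log2 signals relative to the 75th percentile of the same array. Each array held 58717 gene spots, of which 57.4% to 61% were well above background, none was saturated, and arrays of the same group correlated at 0.996 or more. The arrays lay on 2 slides. DMSO and 2,7-Naphthalenediol were wholly on the first, 1-Naphthol and naphthalene wholly on the second, and 1,5-Naphthalenediol had replicates 1 and 2 on the first and replicate 3 on the second. The comparisons of 1-Naphthol and of naphthalene with DMSO therefore ran across slides, and a slide term in the model was estimated from the 3 arrays of 1,5-Naphthalenediol alone; its values are given beside the results. The labelled cell type was clear on the arrays: all 9 hepatocyte markers were well above background on all 15 arrays, and their summed linear level, in units of the 75th percentile, was 404 to 439. Markers of other liver cells were sparse, with 5 of 9 for stellate cells and fibroblasts, 1 of 7 for macrophages, 2 of 6 for endothelial cells, 2 of 5 for bile duct cells and 2 of 6 for lymphocytes passing the filter on dim probes. Col1a1, Lrat, Pdgfrb, Dcn, Cd163, Adgre1, Clec4f, Ptprc, Pecam1, Kdr, Stab2, Krt19, Krt7 and Cd3e were among those that did not pass it. Those that passed were Acta2, Des, Col1a2, Col3a1, Rgs5, Cd68, Vwf, Cdh5, Sox9, Epcam, Cd3d and Nkg7. The endothelial marker Vwf lay above the 75th percentile, with a mean log2 signal of 0.94. Summed levels were 0.231 to 0.327 for stellate cells and fibroblasts, 0.0419 to 0.0612 for macrophages, 1.66 to 2.15 for endothelial cells, 0.456 to 0.649 for bile duct cells (0.596 to 0.649 with DMSO, 0.465 to 0.508 with 2,7-Naphthalenediol, 0.514 to 0.523 with 1,5-Naphthalenediol, 0.456 to 0.549 with 1-Naphthol, 0.612 to 0.645 with naphthalene) and 0.0511 to 0.0713 for lymphocytes, and their part in the results was not tested.

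The 4 compounds left different marks on the chaperones (limma, adjusted p below 0.05 over all genes). With 1,5-Naphthalenediol 12 members rose and 5 fell, with naphthalene 1 rose and 13 fell, with 1-Naphthol 3 rose and 4 fell, and with 2,7-Naphthalenediol 2 rose and 1 fell. Among all 19803 genes tested the shares called in either direction were 22.1%, 25.1%, 20.8% and 11% (rises 9.41%, 12.5%, 10.2% and 6.2%; falls 12.7%, 12.6%, 10.6% and 4.84%). The members' shares were 48.6%, 40%, 20% and 8.57%, so for 1-Naphthol and 2,7-Naphthalenediol the members were called about as often as other genes or less. The median log2 change of the 35 members was 0.10 with 1,5-Naphthalenediol, -0.087 with naphthalene, 0.0056 with 1-Naphthol and -0.017 with 2,7-Naphthalenediol, beside medians over all genes of -0.014, -0.0022, -0.0040 and -0.024. A test of any difference among the 5 groups called 27 of the 35 members, against 44.7% of all genes. Scaling each array to its median instead gave 9 rises and 7 falls for 1,5-Naphthalenediol, 0 and 21 for naphthalene, 2 and 6 for 1-Naphthol and 1 and 4 for 2,7-Naphthalenediol; quantile normalization gave 15 and 4, 1 and 8, 4 and 3, and 2 and 0. The shares of all genes called under these scalings are not given here, so the counts were not set against them. With the slide as a block, 0 members passed in limma for naphthalene (9 at an unadjusted p below 0.05), 1 rose and 0 fell for 1-Naphthol, 13 rose and 6 fell for 1,5-Naphthalenediol, and 2 rose and 2 fell for 2,7-Naphthalenediol. Of all genes, 0.727%, 1.13%, 22.1% and 15.1% were called at the adjusted threshold in that fit, in the same order of compounds. The share of all genes at the unadjusted cut is not given here. Single arrays moved 2 of the counts by over 1.5 times: that for naphthalene was 6 without DMSO replicate 3 or naphthalene replicate 1 and 8 without DMSO replicate 1 or 2 or naphthalene replicate 2, and that for 2,7-Naphthalenediol was 1 without DMSO replicate 1 or 2 or its own replicate 2 or 3. All 4 comparisons share the same 3 DMSO arrays. Against them 11 members passed in no comparison, and Dnaja1 was the 1 member that passed in all 4. The shares of all genes passing in none or in all 4 are not given here, so these counts only describe the members.

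**Figure D1:**
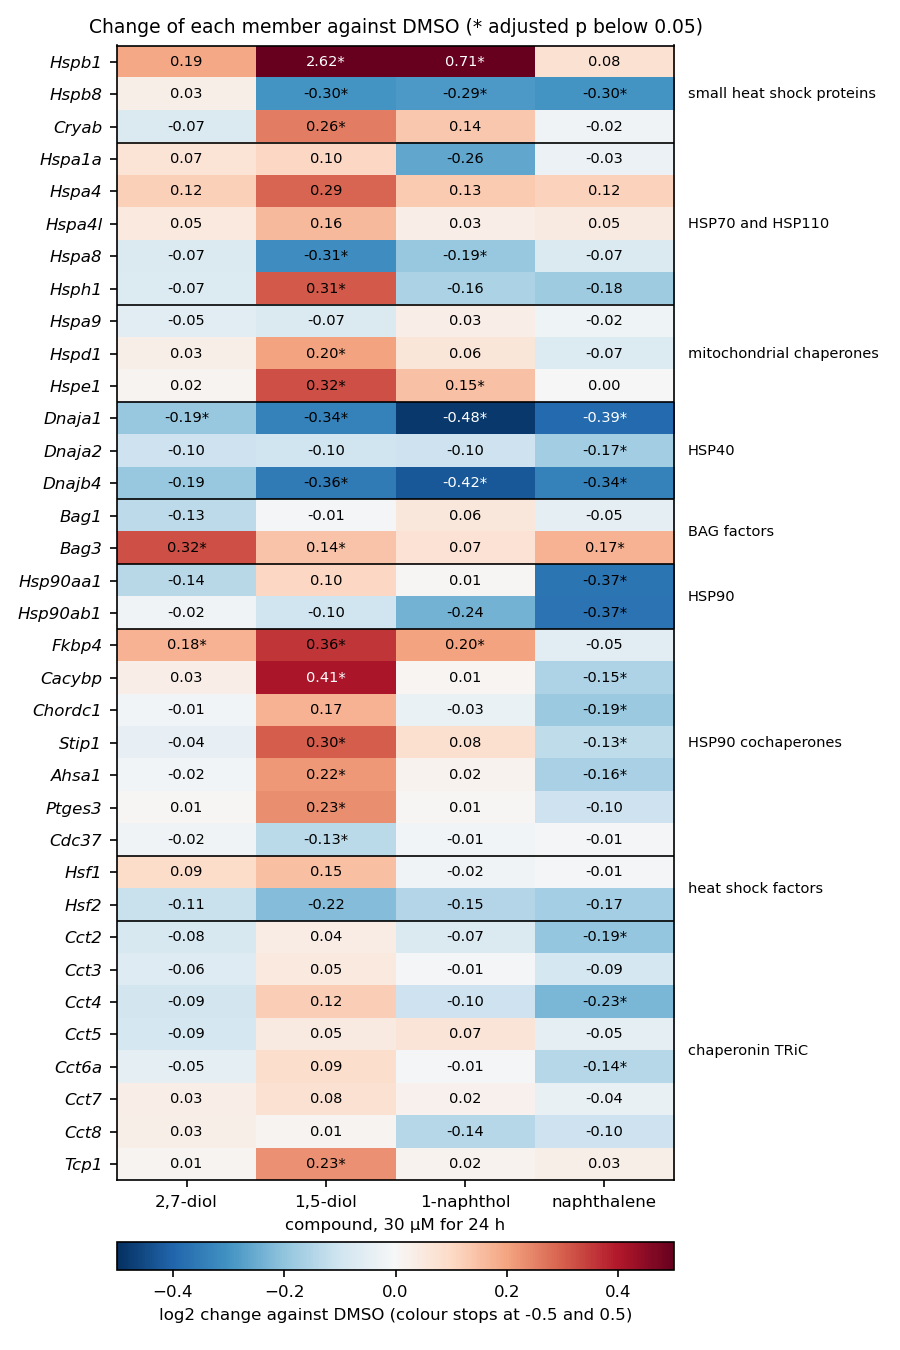
Log2 change against DMSO of the 35 measured members (rows, grouped by role) for each compound (columns; 30 µM for 24 h, 3 arrays a group); an asterisk marks an adjusted p below 0.05 and the colour stops at 0.5 in either direction. Most asterisks of 1,5-Naphthalenediol sit on rises (12 of 17) and most of naphthalene on falls (13 of 14); the asterisks are from the fit without a slide term, and with the slide as a block 0 of the 14 of naphthalene and 1 of the 7 of 1-Naphthol passed in limma.

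The small heat shock protein Hspb1 (HSP27), an ATP-independent holdase that also binds actin, had the widest range of any member. Its log2 signal was -0.08, -0.08 and -0.13 on the 3 DMSO arrays and 2.76, 2.43 and 2.38 with 1,5-Naphthalenediol. It was 0.74, 0.64 and 0.44 with 1-Naphthol, 0.13, -0.01 and 0.16 with 2,7-Naphthalenediol, and 0.04, 0.02 and -0.13 with naphthalene. The 1,5-Naphthalenediol arrays lay above every other array, the 1-Naphthol arrays came next without overlap, and the naphthalene arrays overlapped DMSO. The rise with 1,5-Naphthalenediol was 2.62 ± 0.0996 (log2, SE, n = 3 a group), 6.15-fold, at adjusted p = 1.24e-08, and within the first slide alone it was 2.69. With 1-Naphthol the rise was 0.71 ± 0.0996, 1.63-fold, at adjusted p = 0.00163, and 0.92 ± 0.170 at adjusted p = 0.0321 with the slide as a block. The change with 2,7-Naphthalenediol was 0.19 with a 95% interval from -0.024 to 0.41, and with naphthalene 0.075 with an interval from -0.14 to 0.29; neither passed the test.

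Of the other small heat shock proteins, Cryab rose with 1,5-Naphthalenediol too, and Hspb8 fell with 3 compounds. Cryab, the alpha-B crystallin chaperone, was 6.29, 6.26 and 6.25 with DMSO and 6.55, 6.48 and 6.54 with 1,5-Naphthalenediol, a rise of 0.26 ± 0.0479 (adjusted p = 0.00283). Its 3 exposed arrays lay above all 3 controls. With 1-Naphthol it was 6.46, 6.37 and 6.38, a change of 0.14 that did not pass (adjusted p = 0.0631). Hspb8, which works with BAG3 in chaperone-assisted autophagy, went the other way. It was 1.35, 1.5 and 1.48 with DMSO and 1.48, 1.41 and 1.53 with 2,7-Naphthalenediol, but 1.23, 1.09 and 1.12 with 1,5-Naphthalenediol. With 1-Naphthol it was 1.18, 1.13 and 1.17, and with naphthalene 1.12, 1.17 and 1.16. The 9 arrays of the last 3 compounds lay below all 6 arrays of DMSO and 2,7-Naphthalenediol. The falls were -0.30 (adjusted p = 0.00171), -0.29 (0.00417) and -0.30 (0.00348). With the slide as a block the fall with 1,5-Naphthalenediol was -0.28 (adjusted p = 0.00651), and those with 1-Naphthol and naphthalene were -0.24 and -0.26 and did not pass (adjusted p = 0.195 and 0.166).

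**Figure D2:**
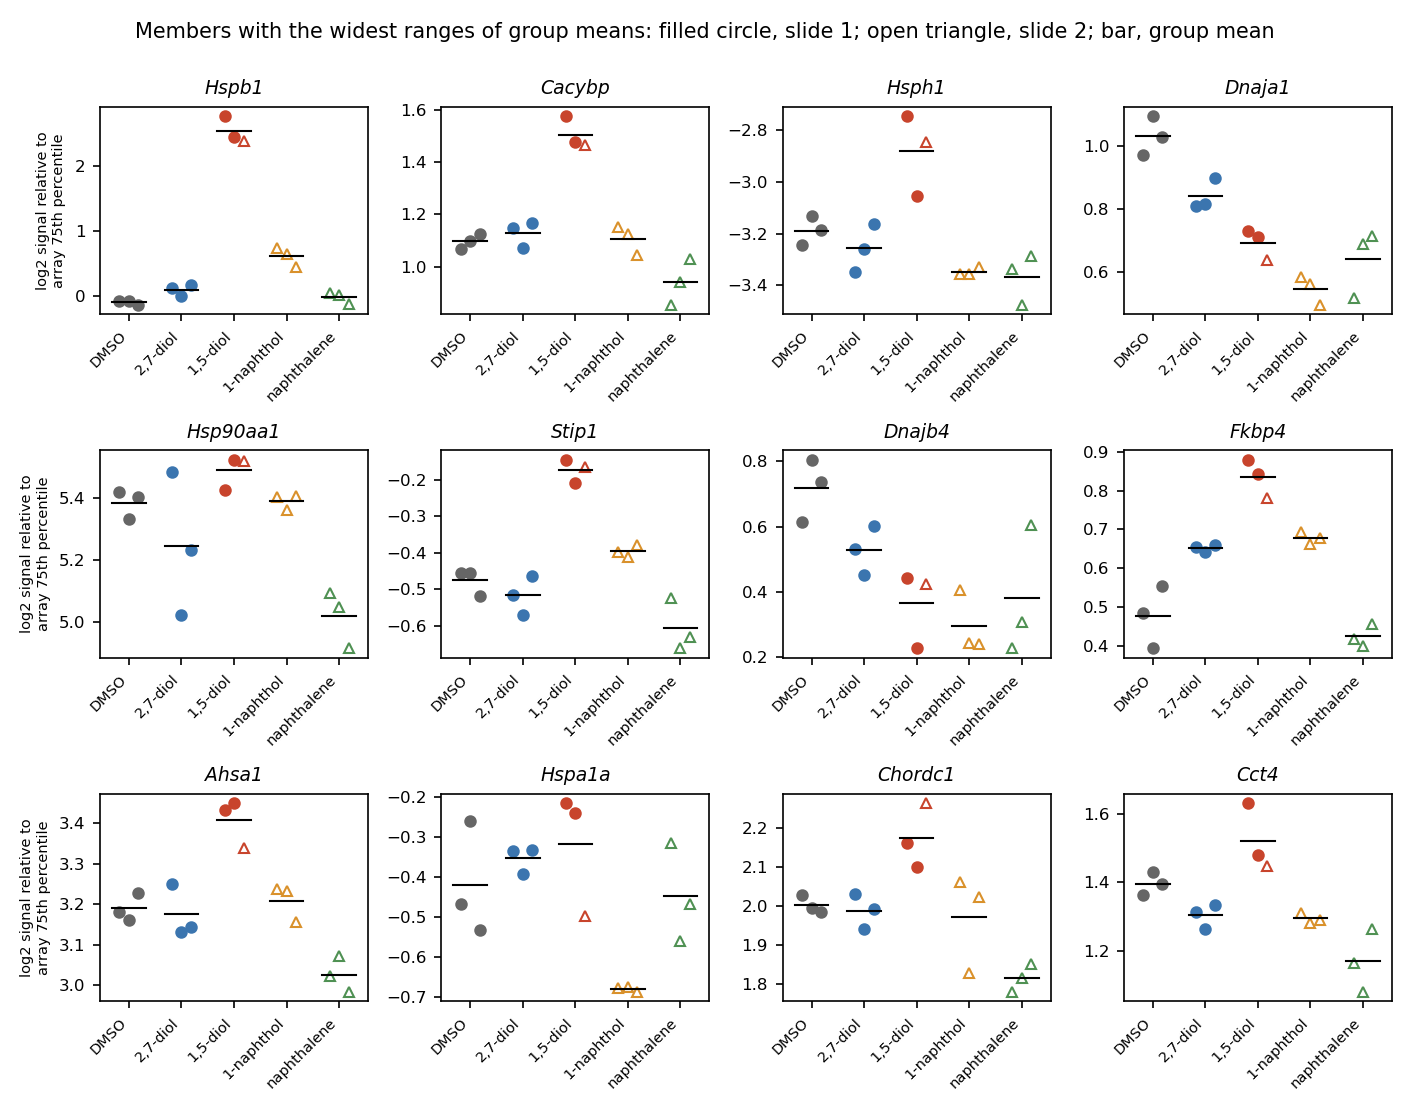
Log2 signal relative to the array's 75th percentile on each of the 15 arrays for the 12 members with the widest ranges of group means among those called over the 5 groups; filled circles are arrays of the first slide, open triangles of the second, bars are group means, and each panel has its own scale. The Hspb1 means span 2.62 from DMSO to 1,5-Naphthalenediol, the mean of Dnaja1 is highest with DMSO, and those of Hsp90aa1 and Ahsa1 are lowest with naphthalene.

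Of the 5 measured HSP70 and HSP110 genes, 1 rose and 1 fell with 1,5-Naphthalenediol, 1 fell with 1-Naphthol, and none passed with the other compounds. Among all genes 9.41% rose and 12.7% fell with 1,5-Naphthalenediol, and 10.6% fell with 1-Naphthol. Hspa8, the constitutive HSC70 of the cytosol, was 6.71, 6.70 and 6.72 with DMSO and 6.42, 6.40 and 6.38 with 1,5-Naphthalenediol, a fall of -0.31 ± 0.0316 (adjusted p = 5.89e-05). With 1-Naphthol it was 6.54, 6.49 and 6.53, a fall of -0.19 (adjusted p = 0.00308) that became -0.16 (0.158) with the slide as a block. Both groups lay below every DMSO array, and 1,5-Naphthalenediol below 1-Naphthol. All 4 Hspa8 probes were lower with 1,5-Naphthalenediol, by -0.23 to -0.57. With 1-Naphthol they ran from -0.061, for the second brightest probe, to -0.37, and with naphthalene from 0.036 to -0.31. Hsph1 (HSP110), which recharges HSP70 with ATP and helps it undo aggregates, rose instead. It was -3.24, -3.13 and -3.19 with DMSO and -2.75, -3.05 and -2.85 with 1,5-Naphthalenediol, a rise of 0.31 ± 0.0757 (adjusted p = 0.0131). On the other 9 arrays it was lower than on any of these 3, from -3.47 to -3.16. The rise did not pass without 1,5-Naphthalenediol replicate 1 (0.24, adjusted p = 0.0519), nor within the first slide alone (0.29, adjusted p = 0.0843).

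The stress-inducible Hspa1a, classically among the most strongly heat-induced genes, did not pass against DMSO with any compound. It was -0.47, -0.26 and -0.53 with DMSO, -0.34, -0.39 and -0.33 with 2,7-Naphthalenediol and -0.22, -0.24 and -0.50 with 1,5-Naphthalenediol. With 1-Naphthol it was -0.68, -0.68 and -0.69 and with naphthalene -0.32, -0.56 and -0.47, so the 1-Naphthol arrays were the lowest of the 15. The change with 1,5-Naphthalenediol was 0.10 with an interval from -0.086 to 0.29, and that with 1-Naphthol was -0.26 (adjusted p = 0.0518; 0.010 with the slide as a block). The gene has a near-identical copy, Hspa1b, whose transcripts the probe may not tell apart, so its values are uncertain. A dimmer probe of Hspa1a was -0.69 with 1-Naphthol and -0.12 with 1,5-Naphthalenediol. Hspa4 and Hspa4l, further HSP110 proteins, changed by 0.29 and 0.16 with 1,5-Naphthalenediol and did not pass (adjusted p = 0.083 and 0.0788).

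Both genes of the mitochondrial folding chamber rose with 1,5-Naphthalenediol, while the mitochondrial HSP70 did not pass. Hspe1, the lid of the chamber, was 4.58, 4.48 and 4.55 with DMSO and 4.84, 4.91 and 4.84 with 1,5-Naphthalenediol, a rise of 0.32 ± 0.0425 (adjusted p = 0.000305). Hspd1, the barrel, was 4.51, 4.49 and 4.47 with DMSO and 4.71, 4.68 and 4.69 with 1,5-Naphthalenediol, a rise of 0.20 ± 0.0352 (adjusted p = 0.00195). For both genes the exposed arrays lay above all DMSO arrays. Hspa9, the mortalin that pulls proteins into the matrix, changed by -0.074 with an interval from -0.18 to 0.033. With 1-Naphthol Hspe1 was 4.72, 4.68 and 4.66, a rise of 0.15 (adjusted p = 0.0304) that did not pass with the slide as a block (0.19, adjusted p = 0.226), without any 1 of DMSO replicates 2 and 3 and the 3 1-Naphthol arrays (0.0578 to 0.107), or with the mean of its 2 probes (0.11, adjusted p = 0.0925). With naphthalene Hspe1 changed by -0.0028 with an interval from -0.096 to 0.090, and Hspd1 by -0.067. The other probes were lower: the second Hspe1 probe, about as bright, was -0.11, and the dimmer Hspd1 probes were -0.34 and -0.12.

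HSP40 proteins hand substrates to HSP70 through their J domains. Of the 3 measured genes, Dnaja1 fell with all 4 compounds, Dnajb4 with 3 and Dnaja2 with 1. Falls among all genes were 4.84% with 2,7-Naphthalenediol, 12.7% with 1,5-Naphthalenediol, 10.6% with 1-Naphthol and 12.6% with naphthalene. Dnaja1 was 0.97, 1.09 and 1.03 with DMSO. It was 0.81, 0.82 and 0.90 with 2,7-Naphthalenediol, 0.73, 0.71 and 0.64 with 1,5-Naphthalenediol, 0.58, 0.56 and 0.50 with 1-Naphthol and 0.52, 0.69 and 0.71 with naphthalene. All 12 exposed arrays lay below the 3 DMSO arrays. The falls were -0.19 (adjusted p = 0.0481), -0.34 (0.00134), -0.48 (0.000603) and -0.39 (0.00196) in that order of compounds. Fitted with the slide block, they were -0.19 (0.041), -0.31 (0.00553), -0.40 (0.0737) and -0.31 (0.125), so the latter pair no longer passed. The fall with 2,7-Naphthalenediol did not pass without any 1 of the 6 arrays compared (0.0592 to 0.139).

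Dnajb4, a second HSP40, was 0.62, 0.81 and 0.74 with DMSO and 0.53, 0.45 and 0.60 with 2,7-Naphthalenediol. It was 0.44, 0.23 and 0.42 with 1,5-Naphthalenediol, 0.41, 0.24 and 0.24 with 1-Naphthol and 0.23, 0.31 and 0.61 with naphthalene. The 3 DMSO arrays were the highest of the 15, with naphthalene replicate 3 just under the lowest of them. The falls were -0.36 (adjusted p = 0.0215), -0.42 (0.0123) and -0.34 (0.0256) for 1,5-Naphthalenediol, 1-Naphthol and naphthalene, and -0.19 without passing (0.214) for 2,7-Naphthalenediol. Fitted with the slide block, the first was -0.38 (0.0306), and the others were -0.51 and -0.43 (0.157 and 0.218). The fall with 1,5-Naphthalenediol did not pass without its replicate 2 (0.0805) or without DMSO replicate 2 (0.0761) or 3 (0.0626), and that with naphthalene not without its replicate 1 (0.0965) or 2 (0.0799) or DMSO replicate 2 (0.0828) or 3 (0.0738). Dnaja2, another HSP40, fell with naphthalene by -0.17 (0.012; -0.27 at 0.0738 with the slide as a block).

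Bag3, a nucleotide exchange factor that links HSP70 to autophagy, was the member most raised by 2,7-Naphthalenediol. It was 1.5, 1.61 and 1.57 with DMSO and 1.86, 1.90 and 1.89 with 2,7-Naphthalenediol, a rise of 0.32 ± 0.0465 (adjusted p = 0.00299). These 3 arrays were the highest of the 15. It was 1.77, 1.71 and 1.63 with 1,5-Naphthalenediol and 1.76, 1.78 and 1.66 with naphthalene, rises of 0.14 (0.0447) and 0.17 (0.0206), and 1.62, 1.66 and 1.61 with 1-Naphthol, which did not pass. With the slide as a block the 3 rises were 0.32 (0.00225), 0.18 (0.0218) and 0.28 (0.0903). The rise with 1,5-Naphthalenediol did not pass without its replicate 1 (0.148) or 2 (0.101) or DMSO replicate 1 (0.156) or 3 (0.0881), and that with naphthalene not without its replicate 1 (0.0649) or 2 (0.07) or DMSO replicate 1 (0.0714) or 3 (0.0523). Bag1, a second exchange factor, was -0.13 with 2,7-Naphthalenediol and passed only with the slide as a block (adjusted p = 0.0616 and 0.0396).

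The HSP90 genes themselves and their cochaperones did not move alike. Hsp90aa1, the inducible cytosolic HSP90, was 5.42, 5.33 and 5.40 with DMSO, 5.43, 5.52 and 5.52 with 1,5-Naphthalenediol and 5.09, 5.05 and 4.92 with naphthalene. It was 5.40, 5.36 and 5.41 with 1-Naphthol and 5.48, 5.02 and 5.23 with 2,7-Naphthalenediol, whose arrays spread the most. Only with naphthalene did it pass, with a fall of -0.37 ± 0.0903 (adjusted p = 0.0147; -0.41 at 0.213 with the slide as a block). Its second probe was -0.10 with naphthalene, against -0.37 for the brighter probe. Hsp90ab1, the constitutive form, was 5.12, 5.12 and 5.28 with DMSO and 4.85, 4.80 and 4.76 with naphthalene, a fall of -0.37 ± 0.108 (adjusted p = 0.0281). On the second slide it was low in every group: 4.80 on the 1,5-Naphthalenediol array there against 5.19 and 5.23 on the 2 arrays of the first slide, and 4.95, 4.91 and 4.95 with 1-Naphthol. In the slide-block fit its change with naphthalene turned to 0.044 (adjusted p = 0.888), its second probe was -0.096, and the call did not pass without DMSO replicate 2 (0.0528) or 3 (0.1) or any 1 naphthalene array (0.0582 to 0.066).

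Of the 7 HSP90 cochaperones, 5 rose and 1 fell with 1,5-Naphthalenediol, 1 rose with 1-Naphthol and with 2,7-Naphthalenediol, and 4 fell with naphthalene. Among all genes 9.41% rose and 12.7% fell with 1,5-Naphthalenediol. Rises were 10.2% with 1-Naphthol and 6.2% with 2,7-Naphthalenediol, and falls 12.6% with naphthalene. Fkbp4 (FKBP52), an immunophilin that carries steroid receptors with HSP90, was 0.48, 0.39 and 0.55 with DMSO and 0.88, 0.84 and 0.78 with 1,5-Naphthalenediol. It was 0.65, 0.64 and 0.66 with 2,7-Naphthalenediol, 0.69, 0.66 and 0.68 with 1-Naphthol and 0.42, 0.40 and 0.46 with naphthalene. The arrays of the 3 hydroxylated compounds all lay above DMSO and naphthalene, and the 1,5-Naphthalenediol arrays above the rest. The rises were 0.36 (adjusted p = 0.000154), 0.18 (0.0248) and 0.20 (0.00859) for 1,5-Naphthalenediol, 2,7-Naphthalenediol and 1-Naphthol. Fitted with the slide block, they were 0.38 (0.000302), 0.18 (0.0185) and 0.28 (0.0774). The rise with 2,7-Naphthalenediol did not pass without DMSO replicate 1 (0.0581) or 2 (0.0734) or any 1 of its own arrays (0.0549 to 0.0744).

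Cacybp, which links HSP90 and a ubiquitin ligase, was 1.07, 1.1 and 1.12 with DMSO, 1.58, 1.48 and 1.46 with 1,5-Naphthalenediol and 0.85, 0.94 and 1.03 with naphthalene. It was 1.15, 1.07 and 1.17 with 2,7-Naphthalenediol and 1.15, 1.13 and 1.04 with 1-Naphthol, both overlapping DMSO. The rise with 1,5-Naphthalenediol was 0.41 ± 0.0518 (adjusted p = 0.000236). Stip1 (HOP), which couples HSP70 to HSP90, was -0.46, -0.46 and -0.52 with DMSO, -0.15, -0.21 and -0.17 with 1,5-Naphthalenediol and -0.52, -0.66 and -0.63 with naphthalene. It was -0.52, -0.57 and -0.46 with 2,7-Naphthalenediol and -0.40, -0.41 and -0.38 with 1-Naphthol. Its rise with 1,5-Naphthalenediol was 0.30 ± 0.0434 (adjusted p = 0.00055). For both genes the 1,5-Naphthalenediol arrays were the 3 highest of the 15.

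Ahsa1 (AHA1), the activator of the HSP90 ATPase, was 3.18, 3.16 and 3.23 with DMSO, 3.43, 3.45 and 3.34 with 1,5-Naphthalenediol and 3.02, 3.07 and 2.98 with naphthalene. It was 3.25, 3.13 and 3.14 with 2,7-Naphthalenediol and 3.24, 3.23 and 3.16 with 1-Naphthol. Chordc1 (morgana), which also binds HSP90, was 2.03, 2.00 and 1.98 with DMSO, 2.16, 2.10 and 2.26 with 1,5-Naphthalenediol and 1.78, 1.82 and 1.85 with naphthalene. It was 2.03, 1.94 and 1.99 with 2,7-Naphthalenediol and 2.06, 1.83 and 2.02 with 1-Naphthol. In both genes 1,5-Naphthalenediol lay above all DMSO arrays and naphthalene below them, and Ahsa1 rose by 0.22 (adjusted p = 0.00592) while Chordc1 did not pass (0.17, adjusted p = 0.0575). Ptges3 (p23), which closes the HSP90 cycle, rose by 0.23 with 1,5-Naphthalenediol (adjusted p = 0.00518). Cdc37, which brings kinases to HSP90, fell by 0.13 (0.0232) and did not pass without DMSO replicate 3 (0.0915) or 1,5-Naphthalenediol replicate 1 (0.0813) or 2 (0.0534).

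The 4 falls with naphthalene were those of Chordc1 (-0.19, adjusted p = 0.04), Ahsa1 (-0.16, 0.024), Cacybp (-0.15, 0.0472) and Stip1 (-0.13, 0.0477), so Cacybp, Stip1 and Ahsa1 rose with 1,5-Naphthalenediol and fell with naphthalene. With the slide as a block these falls were -0.32, -0.06, -0.09 and -0.14 and none passed (adjusted p = 0.119, 0.697, 0.618 and 0.359). Each also did not pass without 4 or 5 of the 6 arrays compared when these were left out in turn: Chordc1 and Cacybp without any but naphthalene replicate 3, Stip1 without any but naphthalene replicate 1, and Ahsa1 without DMSO replicate 1 or 3 or naphthalene replicate 1 or 3 (0.0512 to 0.163 for the 4 genes).

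TRiC folds actin and tubulin. Of its 8 subunit genes, 6 were called over the 5 groups (75%, against 44.7% of all genes). Against DMSO 1 rose with 1,5-Naphthalenediol (12.5%, against rises in 9.41% of all genes), 3 fell with naphthalene (37.5%, against falls in 12.6%), and none passed with 1-Naphthol or 2,7-Naphthalenediol. Tcp1 was 4.33, 4.31 and 4.34 with DMSO and 4.52, 4.58 and 4.57 with 1,5-Naphthalenediol, a rise of 0.23 ± 0.0578 (adjusted p = 0.0148) with all 3 arrays above the controls. The other 7 subunits changed by 0.015 to 0.12 with that compound and did not pass. Cct4 was 1.36, 1.43 and 1.40 with DMSO, 1.63, 1.48 and 1.45 with 1,5-Naphthalenediol and 1.16, 1.08 and 1.26 with naphthalene. It was 1.31, 1.26 and 1.33 with 2,7-Naphthalenediol and 1.31, 1.28 and 1.29 with 1-Naphthol, all below the lowest DMSO array. The falls with naphthalene were -0.23 for Cct4 (adjusted p = 0.0131), -0.19 for Cct2 (0.0154) and -0.14 for Cct6a (0.0281). Fitted with the slide block, they were -0.12, -0.16 and -0.17 and did not pass (0.519, 0.338 and 0.244). The Cct2 call also did not pass without naphthalene replicate 1 (0.0579), and that of Cct6a not without that array (0.0869) or any 1 DMSO array (0.0502 to 0.09).

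The heat shock factors, the transcription factors of this family, did not pass against DMSO with any compound. Hsf1, the main activator of the heat shock response, was -0.91, -0.87 and -0.82 with DMSO, -0.72, -0.73 and -0.87 with 2,7-Naphthalenediol and -0.56, -0.72 and -0.87 with 1,5-Naphthalenediol. It was -0.90, -0.89 and -0.87 with 1-Naphthol and -0.85, -0.92 and -0.86 with naphthalene. The 1,5-Naphthalenediol arrays were split by slide, with the 2 of the first slide above all DMSO arrays and the 1 of the second among them. Without the slide term the change was 0.15 (adjusted p = 0.133), and with it 0.23 (0.0191). Within the first slide alone it was 0.23 and did not pass (adjusted p = 0.0645). The dimmer Hsf1 probe was 0.22 without the slide term. With 1 array of the compound on the second slide, slide and replicate cannot be told apart. Hsf2 was -0.67, -0.57 and -0.62 with DMSO and -0.82, -0.94 and -0.76 with 1,5-Naphthalenediol. It was -0.72, -0.80 and -0.68 with 2,7-Naphthalenediol, -0.75, -0.79 and -0.77 with 1-Naphthol and -1.0, -0.68 and -0.70 with naphthalene. All 12 exposed arrays lay below the 3 DMSO arrays, but the largest change, -0.22 with 1,5-Naphthalenediol, did not pass (adjusted p = 0.0632). Activity of heat shock factors is set largely after transcription, which the arrays do not measure.

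Set against the promoter matches listed above, members with the element of 3 units moved in both directions with 1,5-Naphthalenediol. Hspd1, Hspe1 and Hsph1 rose, Hspa8 and Dnaja1 fell, and Cct4 and Chordc1 did not pass. The matches of 3 units in Dnaja1 (10 to 22), Cct4 (26 to 38) and Chordc1 (11 to 33, a longer run) lay after the start site. Hspb1, the member with the largest change, held only elements of 2 units in its window.

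**Figure D3:**
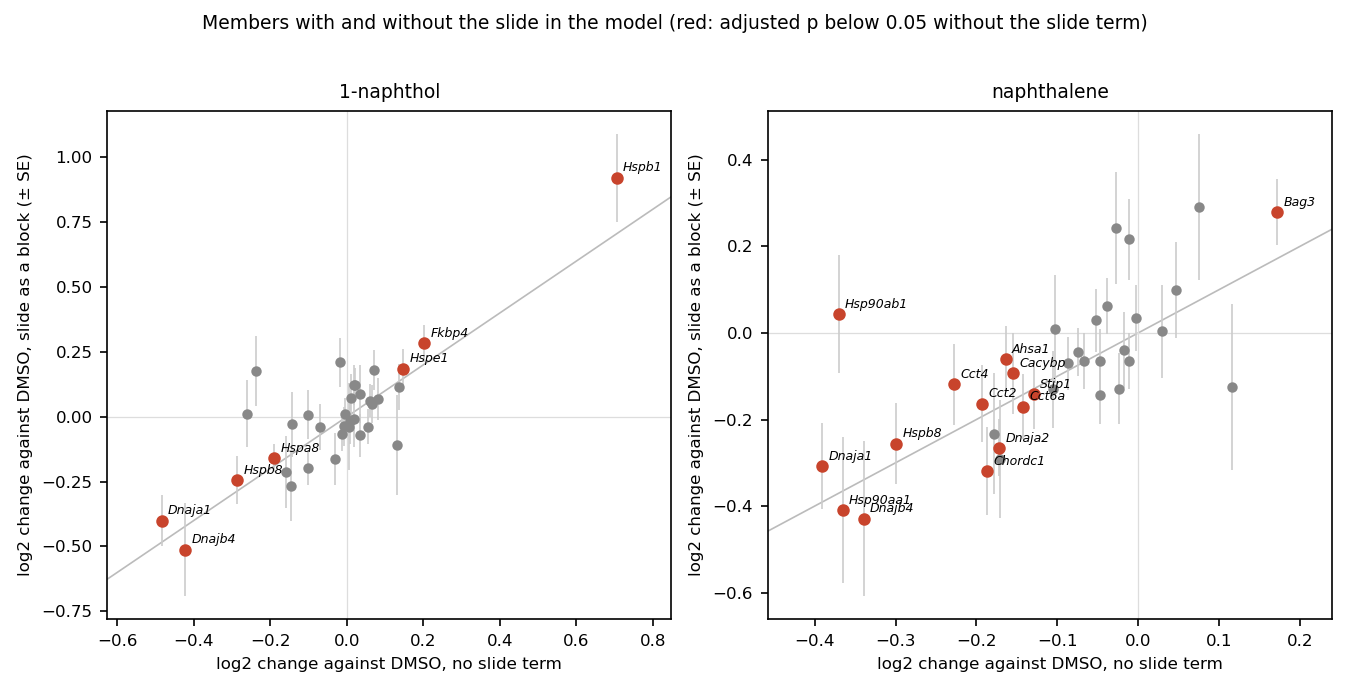
Log2 change against DMSO of the 35 members for 1-Naphthol (left) and naphthalene (right) without a slide term (x axis) and with the slide as a block (y axis, bars 1 SE); the grey line marks equality and red points passed without the slide term. Hspb1 stays the highest with 1-Naphthol (0.71 and 0.92), while Hsp90ab1 leaves the line with naphthalene (-0.37 and 0.044).

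For the comparisons across slides the calls depended on the slide term. Standard errors grew with it, for Hspb1 with 1-Naphthol from 0.0996 to 0.170. The members' median change with the term was -0.070 with naphthalene and -0.0084 with 1-Naphthol. Over all genes it was -0.015 and -0.012. How far the larger errors account for the lost calls was not tested. With the slide term, 1 of the 7 members called with 1-Naphthol passed (Hspb1), where 1.13% of all genes were called, and all 7 kept their sign. With naphthalene none of the 14 passed (0.727% of all genes), 13 kept their sign, and 9 members had an unadjusted p below 0.05 in limma. The share of all genes at that unadjusted cut is not given here. For 1,5-Naphthalenediol all 17 calls passed with the term, and 19 members were called in all (22.1% of all genes). 2,7-Naphthalenediol lay wholly on the slide of DMSO, so the term cannot change its differences and is no check on them. All 3 of its calls passed, and 4 were called in all (15.1% of all genes). Leaving out each array in turn, the calls that held every time were 13 of 17 for 1,5-Naphthalenediol, 6 of 7 for 1-Naphthol, 5 of 14 for naphthalene and 1 of 3 for 2,7-Naphthalenediol.

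The compounds were compared with each other at the same dose and time in 6 pairs, with p-values adjusted over all genes within each pair. The p-values were also adjusted over all genes and the 6 pairs together, a choice made after the values were seen. The members called were then 17 in place of 18 for 1,5-Naphthalenediol against 2,7-Naphthalenediol (14.3% of all genes called jointly). For 1-Naphthol against naphthalene they were 8 in place of 3, while the share of all genes was 5.97% in place of 2.44%. For 1,5-Naphthalenediol they were 14 in place of 13 against 1-Naphthol (11.1% of all genes) and 19 in both cases against naphthalene (20.3%). For 2,7-Naphthalenediol they were 9 in both cases against 1-Naphthol (14.3%) and 4 in place of 7 against naphthalene (14.9%). The diols differ in where their hydroxyl groups sit, and they differed in 18 members: 15 were higher and 3 lower with 1,5-Naphthalenediol than with 2,7-Naphthalenediol, against 14.7% of all genes called (6.62% higher, 8.1% lower). Hspb1 differed most, by 2.43 ± 0.0996 (adjusted p = 3.91e-08), followed by Cacybp (0.38), Hsph1 (0.37), Stip1 (0.34), Cryab (0.33) and Hspe1 (0.31). Those lower were Hspb8 (-0.33), Hspa8 (-0.24) and Bag3 (-0.18). Within the first slide, which held all arrays of one and 2 of the other, 12 of the 18 passed, and Hspb1 differed by 2.50. Of all genes 8.04% were called there. The HSP40 genes gave no call: the differences were -0.15 for Dnaja1 (95% interval -0.27 to -0.026), -0.16 for Dnajb4 (-0.38 to 0.046) and 0.0069 for Dnaja2 (-0.081 to 0.095). Hspa1a differed by 0.035 (-0.15 to 0.22). The calls that did not pass with every array left out in turn were Cct3 and Cct6a (without any 1 of the 6 arrays), Cct4 (without 1,5-Naphthalenediol replicate 1 or 2,7-Naphthalenediol replicate 1 or 2), Cct5, Tcp1 and Bag3 (without 4 of the 6), with adjusted p up to 0.144.

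1-Naphthol differs from naphthalene by a hydroxyl group, and both lay on the second slide. Hspb1 (0.63 ± 0.0996, adjusted p = 0.0072), Fkbp4 (0.25 ± 0.0425, 0.0102) and Stip1 (0.21 ± 0.0434, 0.0284) were higher with 1-Naphthol, and none was lower, against 2.44% of all genes called (1.04% higher, 1.4% lower). A slide term cannot change differences within a slide, so the slide-block fit is no check on them. Their adjusted p in that limma fit was 0.00818, 0.00952 and 0.0322. Fitted on these 6 arrays alone, none of the 35 members passed in limma, and 0.268% of all genes were called at the adjusted threshold. At an unadjusted p below 0.05 there were 14 members, and the share of all genes at that cut is not given here. Stip1 also did not pass without any 1 of 5 arrays, the exception being naphthalene replicate 1 (0.0642 to 0.0971). Hsp90aa1 was higher by 0.37 with an interval from 0.17 to 0.57 and did not pass (adjusted p = 0.055). Hspb8 differed by 0.012 (interval -0.10 to 0.12) and Dnaja1 by -0.094 (-0.22 to 0.028), both of which were lower than DMSO with either compound.

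**Figure D4:**
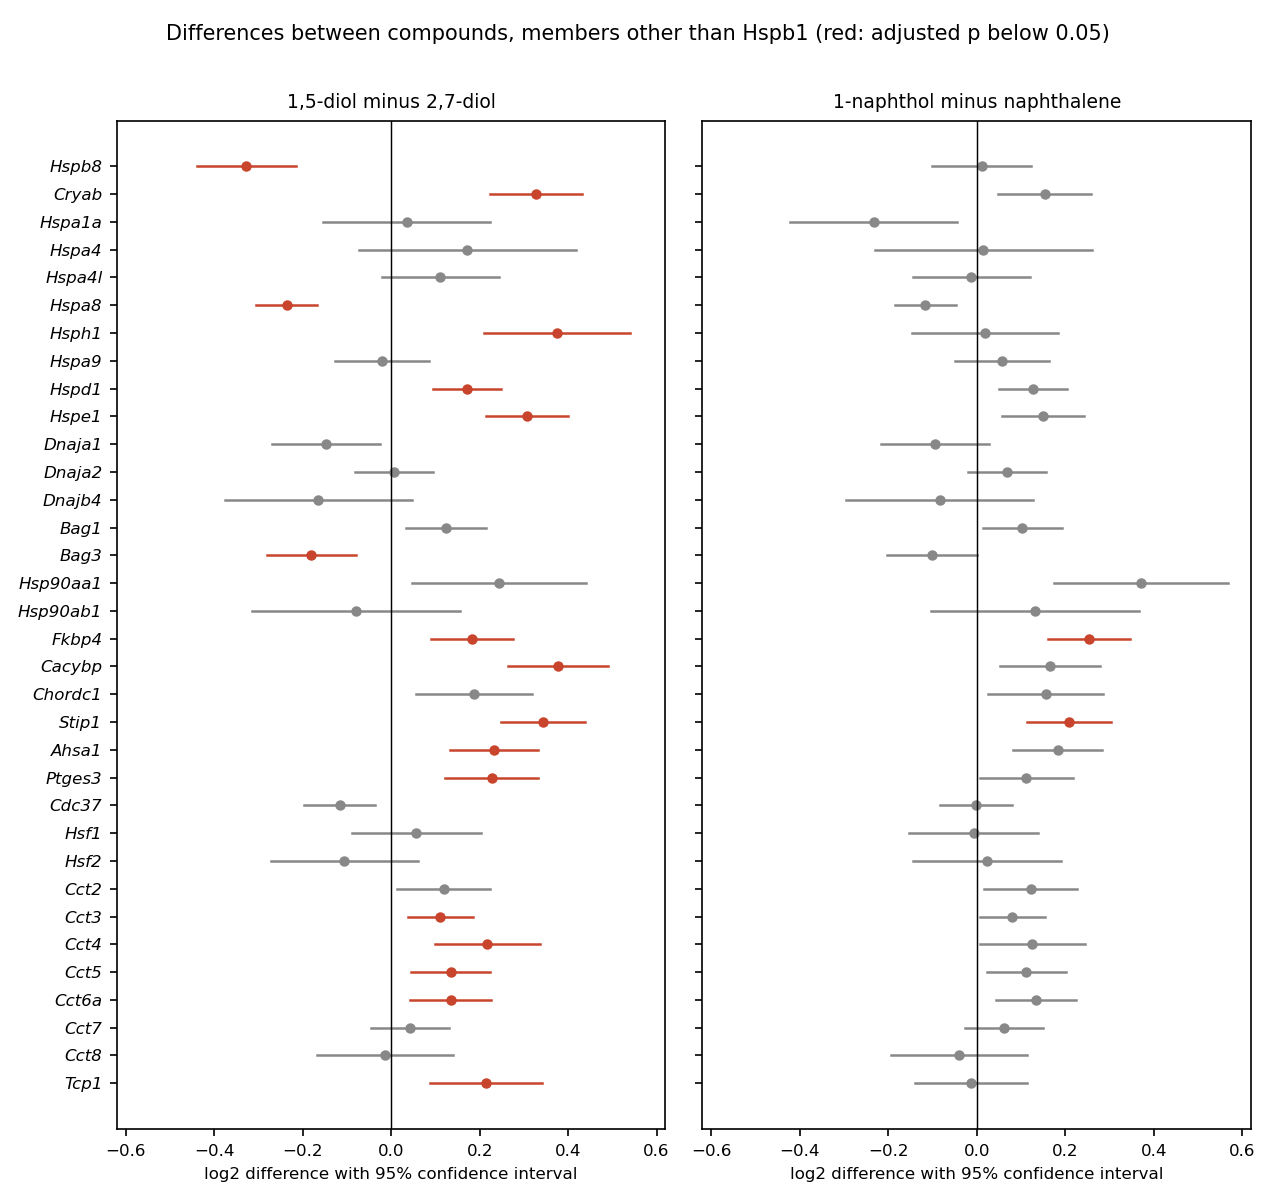
Log2 differences with 95% confidence intervals (lines) for 34 members, Hspb1 left out for scale, between the diols (left) and between 1-Naphthol and naphthalene (right), 3 arrays a group; red marks an adjusted p below 0.05. Most intervals between the diols that clear 0 lie on the side of 1,5-Naphthalenediol, with Hspb8, Hspa8 and Bag3 opposite, and on the right Fkbp4 and Stip1 are the red points.

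1,5-Naphthalenediol and 1-Naphthol, which differ by a hydroxyl group, differed in 13 members (12 higher, 1 lower with the diol; 9.16% of all genes, 4.36% higher and 4.8% lower). Hspb1 was higher by 1.92 ± 0.0996 (adjusted p = 5.5e-07), Hsph1 by 0.47 (0.00355), Cacybp by 0.40 (0.00101), Hspa1a by 0.36 (0.026), Cct4 by 0.23 (0.0274) and Ptges3 by 0.23 (0.016), and Hspa8 was lower by -0.12 (0.0377). With the slide as a block Hspb1 (1.77, 8e-05), Hsph1 (0.50, 0.0455) and Cacybp (0.36, 0.0348) passed, where 1.87% of all genes were called. Within the second slide alone, where the diol had 1 array, Hspb1 was higher by 1.77. Stip1, Hspb1, Hsph1 and Cacybp were the 4 calls that held with each array left out. The count of 13 fell to between 4 and 6 without replicate 1 or 2 of the diol or any 1 of the 1-Naphthol arrays. The adjusted p of the other 9 then reached up to 0.142. Against naphthalene 1,5-Naphthalenediol differed in 19 members (17 higher, 2 lower; 24.9% of all genes, 11.3% higher and 13.7% lower). Hspb1 was higher by 2.55 (adjusted p = 1.74e-08), Cacybp by 0.56 (3.5e-05), Hsph1 by 0.48 (0.00104), Hsp90aa1 by 0.47 (0.0035), Stip1 by 0.43 (5.82e-05) and Fkbp4 by 0.41 (7.17e-05), and Hspa8 and Cdc37 were lower by -0.24 and -0.12. In the slide-block fit 15 of the 19 passed, where 8.47% of all genes were called. Within the second slide alone, where the diol had 1 array, these 6 were also higher. The differences there were 2.40 for Hspb1, 0.52 for Cacybp, 0.52 for Hsph1, 0.50 for Hsp90aa1, 0.44 for Stip1 and 0.36 for Fkbp4. The 3 calls of the 19 lost on leaving out an array were Cct3 (without naphthalene replicate 2, 0.0519), Tcp1 (without either's replicate 2, the diol's 3 or naphthalene's 1; 0.0508 to 0.0967) and Cdc37 (without replicate 1 or 2 of either; 0.0732 to 0.112).

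2,7-Naphthalenediol lay wholly on the first slide, and its contrasts with 1-Naphthol and naphthalene crossed slides. Against 1-Naphthol 5 members were higher, Hspa1a (0.33), Hspb8 (0.32), Dnaja1 (0.29), Bag3 (0.25) and Hspa8 (0.12), and 4 were lower, Hspb1 (-0.51), Cryab (-0.21), Bag1 (-0.19) and Cct5 (-0.15), where 14.7% of all genes were called (6.23% higher, 8.49% lower). Against naphthalene 7 were higher, among them Hsp90ab1 (0.35), Hspb8 (0.33), Fkbp4 (0.23), Dnaja1 (0.20), Cacybp (0.19) and Bag3 (0.15), where 15.8% of all genes were called (6.33% higher, 9.5% lower). Fitted with the slide block, none of the 9 or of the 7 passed in limma, and 0.0808% and 0.0202% of all genes were called at the adjusted threshold. In each, 3 members had an unadjusted p below 0.05, and the share of all genes at that cut is not given here. Leaving out each array in turn, 4 of the 9 and 2 of the 7 held: Hspb1, Hspb8, Dnaja1 and Bag3 against 1-Naphthol, Hspb8 and Fkbp4 against naphthalene. The count of 9 was 5 without 1-Naphthol replicate 1 or 3 or 2,7-Naphthalenediol replicate 2, and that of 7 was 2 to 4 without 2,7-Naphthalenediol replicate 1 or 3 or any 1 naphthalene array. Under the slide block Hsp90ab1 turned to -0.063 (adjusted p = 0.928), and the other called members kept their sign.

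A wider list of 69 genes of the chaperone network that are not members (further HSP40 genes, prefoldins, HSP90 partners, mitochondrial proteases and ubiquitin genes) had 56 tested. With 1,5-Naphthalenediol 5 rose and 10 fell, with naphthalene 2 and 12, with 1-Naphthol 1 and 10, and with 2,7-Naphthalenediol 2 and 3. These shares of the 56 (26.8%, 25%, 19.6% and 8.93%) were near those of all genes (22.1%, 25.1%, 20.8% and 11%). Ubb, a polyubiquitin gene, fell by 0.62 with 1,5-Naphthalenediol (adjusted p = 6.25e-07), by 0.28 with 1-Naphthol (0.00108; -0.29 at 0.0591 with the slide as a block) and by 0.16 with 2,7-Naphthalenediol (0.0185), the last not passing without DMSO replicate 1 or 3 or 2,7-Naphthalenediol replicate 2 or 3 (0.0519 to 0.0723). It also fell with naphthalene, by 0.18 (0.00554; -0.19 at 0.139 with the slide as a block), a value named after it was seen. Dnajc5, an HSP40 of vesicles, rose by 0.29 with 1,5-Naphthalenediol (0.000219), and Htra2, a mitochondrial protease, fell by 0.32 (0.000406). With 1-Naphthol both were called too, at 0.14 (0.0224) and -0.15 (0.0345). The slide block gave 0.12 (0.358) and -0.22 (0.151) there. Lonp1, the main matrix protease, rose by 0.32 with 2,7-Naphthalenediol (0.0047). It also rose by 0.22 with naphthalene (0.0133), which became 0.32 (0.0928) with the slide as a block. With naphthalene Dnajc7, which works with HSP70 and HSP90, fell by 0.48 (0.0101) and St13, an HSP70 partner, by 0.27 (0.0134), and with the slide as a block they were -0.28 and -0.10 and did not pass (0.44 and 0.642).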

How the data were processed

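RNA of 15 cultures (5 groups of 3) was labelled with Cy3 from 100 ng and hybridised to Agilent 1-colour arrays. The deposited files hold spot intensities; per the file headers the authors' processed signal came from Feature Extraction 10.7.1.1, which had subtracted background and spatial trend within each array. The headers name the rat build rn4 for the array design, from which no coordinates were taken, and a normalization between arrays is not given in the sources used here. From these intensities, log2 of the processed signal minus the array's 75th percentile was computed, and flagged and control spots were left out of the tests. Of 45598 probes, 23562 were kept, those that Feature Extraction marked as well above background throughout some group (3 arrays). They were named by transcript accession through RefSeq (10503 of the 19803 genes tested by symbol, 9300 under their accession), with the brightest probe for a gene with several.

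The 5 groups were fitted in 1 model with limma 3.58.1 (R 4.3.3, data.table version 1.17.8), with all 15 arrays sharing the estimate of spread, and p-values were adjusted by Benjamini-Hochberg over all genes tested in each of 10 comparisons and in the test over the 5 groups (threshold 0.05). "Rose", "fell" and "called" refer to that threshold. The p-values measure the spread between these 3 cultures a group, and their number limits the precision. Values per array are given for the 12 called members with the widest range of group means and for Hsf1 and Hsf2, and changes for up to 6 rises and 6 falls a comparison, with further members where needed; of the wider list, up to 3 of each. The members and lists were chosen with earlier results of these data known. The slide was read from the array headers. Alternatives were another background correction, quantile or median scaling, other filters on dim probes, the mean of a gene's probes, the slide or the replicate number as a block, each slide alone, the 6 arrays compared alone, and leaving out each array. The test was checked on simulated data with independent noise, no slide effect and changes set in 1,5-Naphthalenediol alone. That check does not cover the comparisons across slides. Promoters are from RefSeq (GRCr8); those of Cryab, Dnaja2, Dnajb4, Hsf1, Hsp90aa1 and Hspa1b were not used here.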

Additional observations from a re-analysis of the deposited data

How the results depend on the processing

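The count of members called for 1,5-Naphthalenediol against DMSO stayed between 13 and 19 over all 16 settings run. The other counts depended on the processing, and the cause was not tested. Most counts below, those at an unadjusted p included, are given without the share of all genes called under the same setting. With no filter on dim probes, which tests more genes, the members called were 3 (naphthalene against DMSO), 1 (2,7-Naphthalenediol against DMSO), 10 (1,5-Naphthalenediol against 2,7-Naphthalenediol), 3 (1,5-Naphthalenediol against 1-Naphthol), 1 (1-Naphthol against naphthalene), 4 and 2 (2,7-Naphthalenediol against 1-Naphthol and naphthalene) and 17 in the test over 5 groups. With only the 6 arrays compared in the limma fit they were 5 (naphthalene against DMSO), 1 (2,7-Naphthalenediol against DMSO), 9 (1,5-Naphthalenediol against 2,7-Naphthalenediol), 3 (1,5-Naphthalenediol against 1-Naphthol), 2 (2,7-Naphthalenediol against naphthalene) and 0 (1-Naphthol against naphthalene, where 14 had an unadjusted p below 0.05). With the slide as a block they were 1 (1-Naphthol against DMSO), 3 (1,5-Naphthalenediol against 1-Naphthol), and in limma 0 for naphthalene against DMSO (9 at an unadjusted p below 0.05) and for 2,7-Naphthalenediol against 1-Naphthol and against naphthalene (3 each). On the second slide alone they were in limma 0 for 1-Naphthol against naphthalene (14 unadjusted). Counts for 1,5-Naphthalenediol, with 1 array there, are not given. Array-median scaling gave 7 for 1,5-Naphthalenediol against 1-Naphthol and 5 for 2,7-Naphthalenediol against DMSO, and quantile normalization 9 for naphthalene against DMSO. The planned normexp setting could not be run on the mean spot signal; on the median spot signal, chosen after seeing the data, it gave 7 for 1-Naphthol against naphthalene. Of 130 gene results named, the slide block kept the direction and the side of the threshold in 65, lost the call in 62 and reversed 3: Hsp90ab1 with naphthalene against DMSO (0.044) and with 2,7-Naphthalenediol against naphthalene (-0.063), and Hspb2 with naphthalene against DMSO (-0.069; 0.27 without the block). No other setting reversed a named gene.

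Leaving out each array in turn, the members called ranged from 1 to 2 for 2,7-Naphthalenediol against DMSO, 14 to 19 for 1,5-Naphthalenediol, 6 to 7 for 1-Naphthol, 6 to 13 for naphthalene, 4 to 14 for 1,5-Naphthalenediol against 1-Naphthol, 5 to 7 and 2 to 5 for 2,7-Naphthalenediol against 1-Naphthol and naphthalene, and 2 to 3 for 1-Naphthol against naphthalene. Replicate numbers did not pair the samples: of 30 same-numbered pairs of arrays 2 correlated above 0.1 (range -0.18 to 0.20), and for 5 of the 15 arrays the best match bore the same number. The replicate block gave 4 members for 2,7-Naphthalenediol against naphthalene and moved no other count by over 1.5 times.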
